A study of Solanum lycopersicum with 18 samples.

Results

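Class III peroxidases are secreted plant heme enzymes, and their transcripts were followed in the leaves of 2 tomato materials given NaCl. The genes were taken by their deposited descriptions, as those called peroxidase followed by a number, or named lignin-forming, suberization-associated or cationic peroxidase. This rule matched 70 of the 23808 genes in the table. One match, LOC101262135, is described as OVEREXPRESSOR OF CATIONIC PEROXIDASE 3, a homeodomain protein in Arabidopsis and not a peroxidase, so it is given apart and 69 peroxidases are described. No level of expression entered the choice.

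The labels name the materials Micro-TOM, a dwarf tomato used as a laboratory model, and Micro-TOM-EX, and the sources used here do not say what sets the latter apart. Plants of both stood in soil in a greenhouse under 16 h of light, and leaf RNA was sequenced at 0 h, 2 h and 8 h of NaCl, whose dose was not given. There were 6 groups of 3 libraries (Micro-TOM at 0, 2 and 8 h, and Micro-TOM-EX at 0, 2 and 8 h), 18 libraries in all. Library values are given below in the order of replicates 1, 2 and 3. Untreated leaves of 2 h and 8 h were not analysed here, so salt and time of day cannot be told apart in any comparison of hours. Separate plants are not stated for the 3 libraries within a group, and p-values then measure only the spread between these samples.

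Class III peroxidases use hydrogen peroxide to oxidise phenolic compounds in the cell wall and the vacuole. They couple lignin monomers into lignin, join the phenolic part of suberin and cross-link wall proteins, which stiffens and seals the wall. Under other conditions they make reactive oxygen species instead of using them up. Plants hold them as large families that grew by tandem duplication, and in leaves they are known from vascular tissue, wounding, pathogen attack and the end of cell expansion. Numbered names such as peroxidase 12 follow the closest numbered protein, mostly of Arabidopsis, and carry no proven function in tomato.

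Levels are FPKM, fragments scaled to transcript length and to the mapped fragments of a library, as the authors deposited them. The spacing of the rounded values put the libraries at 18.47 to 19.97 M (mega) fragments, so 1 fragment of a peroxidase transcript of median length (1241 bases) was worth 0.0459 to 0.0496 FPKM. Changes are on the log2(FPKM + 1) scale, which understates the change of genes with low values. A gene was tested where it reached 1 FPKM in at least 3 libraries, and passed where its limma p, adjusted by Benjamini and Hochberg over all 18402 genes tested, was under 0.05. At 2 h the median of all genes moved by -0.31 in Micro-TOM and by -0.37 in Micro-TOM-EX, so counts after rescaling the libraries by their median ratios stand beside the main ones. The number 2 libraries of 0 h correlated least with the others of their groups (median r of 0.972 in both materials). The tests of LOC101246783 and some of the counts are given without them as well.

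Most of the family was silent or nearly so in these leaves. Of the 69 peroxidases, 29 passed the filter (42.0%, against 77.3% of all genes in the table), 40 did not, 35 never reached 1 FPKM and 28 never exceeded 0.25 FPKM. At the other end, 10 stood at 1 FPKM or more in all 18 libraries, 15 reached 10 FPKM in a library and 8 reached 50 FPKM. Of the 29, 6 reached 1 FPKM at 1 hour only and 3 at the later hours only. These 9 thus entered the test through the libraries where they were high. A difference between hours was then close to fixed by the filter. The exception was LOC101266098 (peroxidase 66), at 1 FPKM or more in 3 libraries, which passed in none of the comparisons. The tests of these 9 are given as a description, and counts of the other 20 stand beside the main ones. The 20 are not free of this effect. LOC101251503, LOC101265511 and LOC101267754 reached 1 FPKM in 13, 14 and 13 libraries, mostly of 2 h and 8 h. LOC101248236 did so in 6, mostly of 0 h. A single library held 15 to 23 peroxidases at 1 FPKM or more. The 5 that reached 1 FPKM in only 1 or 2 libraries were LOC101267473 (peroxidase 64, at most 2.04 FPKM), LOC101260035 (putative peroxidase 48, at most 2.25 FPKM), LOC101265285 (peroxidase 43-like, at most 1.47 FPKM), LOC101249975 (peroxidase 10, at most 1.14 FPKM) and LOC101244141 (peroxidase 72, at most 1.02 FPKM). In Arabidopsis, peroxidase 64 helps lay down the lignin of the Casparian strip in the root endodermis, and peroxidase 72 takes part in lignification.

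The chromosomes differed in how many of their peroxidases were seen. By the positions the authors deposited (their genome build is not given in the sources used here), 68 of the 69 lay on chromosomes. Chromosome 2 held 16, of which 8 passed the filter. Chromosome 5 held 9, of which 0 passed, among them LOC101244958, LOC101244376 and LOC101244668, a run of peroxidase 3 genes over 82.6 kb that never exceeded 0.34 FPKM. In 13 places, 27 peroxidases lay within 100 kb of another one, and 9 of these 27 passed the filter. In most of these places 1 neighbour at most was expressed. LOC101268153 (cationic peroxidase 1, chromosome 10) reached 19.5 FPKM, and its neighbour LOC101265182 (peroxidase 2-like) never exceeded 0.05 FPKM. LOC101250523 (peroxidase 3, chromosome 7) reached 13.0 FPKM, while LOC101248408 beside it (peroxidase 3-like) also never exceeded 0.05 FPKM. Genes of near-identical sequence can share reads, and the counting of the authors could split such reads between neighbours in a way that was not checked here.

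**Figure D1:**
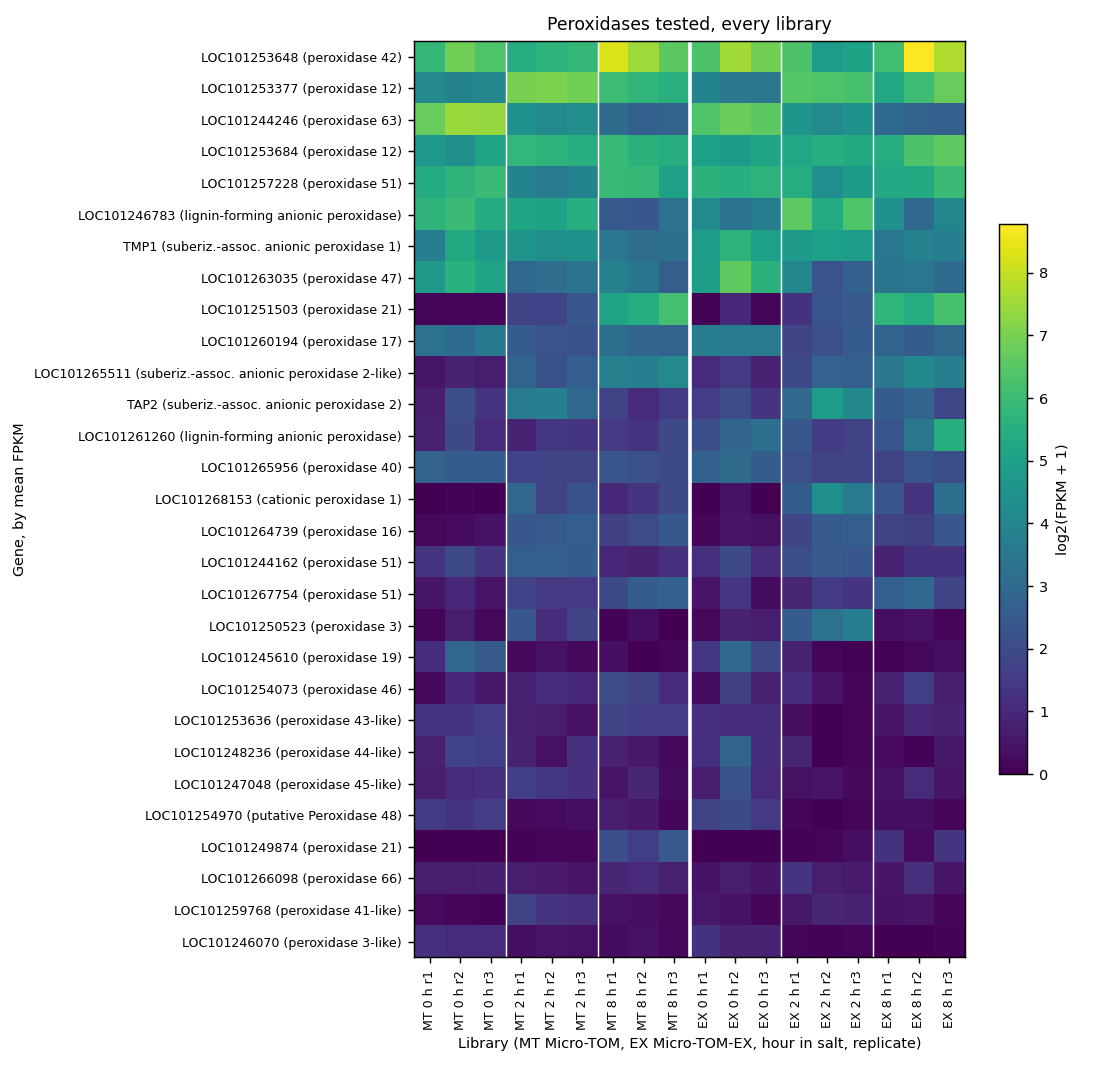
Level of each of the 29 tested peroxidases (rows, by mean FPKM) in each of the 18 libraries (columns, by material, hour and replicate), as log2(FPKM + 1) in colour. Peroxidase 63 (LOC101244246) darkens from 0 h to 8 h and peroxidase 21 (LOC101251503) brightens, in both materials.

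A few genes carried most of the peroxidase transcript, and which ones they were differed between hours. The summed FPKM of the 69 peroxidases ranged from 330.4 to 764.9 over the 18 libraries, with group means of 476.5 ± 105.1 (SD, n = 3), 380.3 ± 7.18 and 484.7 ± 127.8 at 0, 2 and 8 h in Micro-TOM. In Micro-TOM-EX they were 469.4 ± 122.1, 396.7 ± 51.6 and 593.4 ± 231.2, and the libraries of all hours overlapped. The 5 leading genes of a group made up 67.4 to 81.98% of its sum. At 0 h in Micro-TOM, peroxidase 63 (LOC101244246) held 31.0% of the sum and peroxidase 42 (LOC101253648) 17.4%. In Micro-TOM-EX at 0 h the order was reversed, with peroxidase 42 at 26.6% and peroxidase 63 at 20.5%. At 2 h, peroxidase 12 (LOC101253377) led in Micro-TOM with 32.8% and in Micro-TOM-EX with 20.4%. At 8 h, peroxidase 42 led in both, with 38.4% in Micro-TOM and 36.0% in Micro-TOM-EX, though its share in single Micro-TOM-EX libraries ran from 20.1 to 57.2%.

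**Figure D2:**
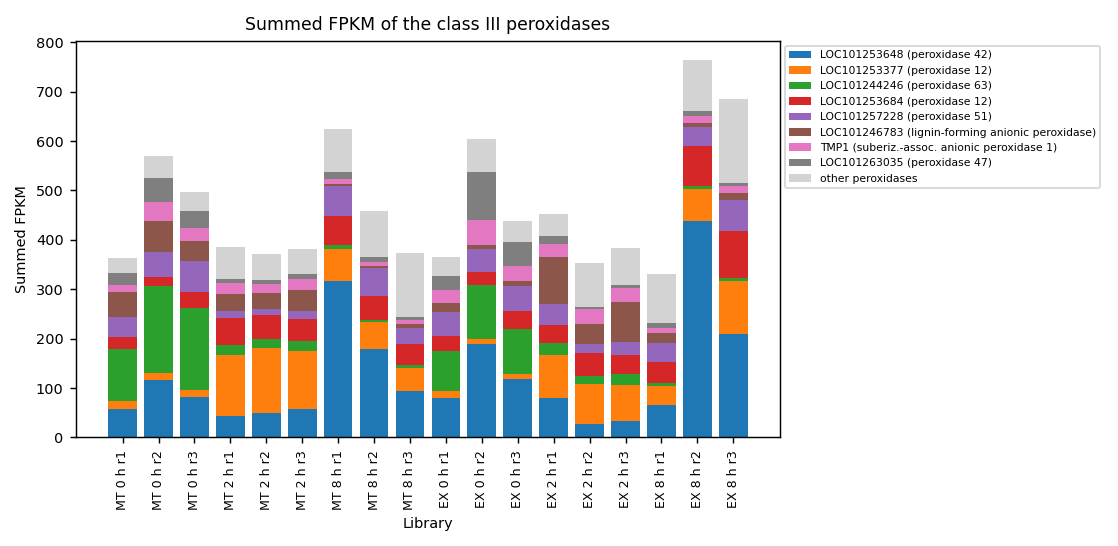
Summed FPKM of the 69 class III peroxidases in each of the 18 libraries, as stacked bars from 0, with the 8 genes of highest mean FPKM in colour and the rest in light grey. The bar of peroxidase 63 (LOC101244246) is tall in the 6 libraries of 0 h, and that of peroxidase 12 (LOC101253377) widens at 2 h.

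In the comparison of 2 h with 0 h, which shows the early change, the peroxidases moved both ways, as did all genes. Whether their shares differed from those of all genes was not tested. In Micro-TOM, 11 of the 29 tested peroxidases were higher and 9 lower, where 27.5% of all tested genes were higher and 47.5% lower. Their median log2 change was -0.07, beside -0.31 over all genes. Rescaled, 12 were higher and 9 lower of 28 that then passed the filter, beside 35.5% and 37% of all genes. In Micro-TOM-EX, 10 were higher and 12 lower, beside 26.7% and 49.2% of all genes, with medians of -0.28 and -0.37. Rescaled, 12 were higher and 10 lower, beside 36.6% and 37.1% of all genes. Among the 20 peroxidases beside the 9 set apart above, 7 were higher and 6 lower in Micro-TOM, and 6 and 9 in Micro-TOM-EX.

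At 8 h the counts were as even. In Micro-TOM, 9 peroxidases were higher and 9 lower than at 0 h, beside 37% and 33.6% of all genes, and the medians were 0.06 and 0.04. In Micro-TOM-EX, 8 were higher and 10 lower, beside 35.5% and 35.8% of all genes. Rescaled, these counts were 9 and 10 in Micro-TOM, beside 35.1% each way of all genes, and 8 and 9 in Micro-TOM-EX, beside 36.1% and 34.7%. Among the 20, 6 were higher and 6 lower in Micro-TOM, and 5 and 7 in Micro-TOM-EX. The comparisons of 2 h and of 8 h share the 0 h libraries of their material, so each gene's values are given side by side and no overlap between them is drawn. No peroxidase passed in opposite directions in the materials at either hour.

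LOC101253377, a peroxidase 12 gene on chromosome 4 (58913329 to 58915320, plus strand), was the leading peroxidase at 2 h. In Micro-TOM it stood at 16.4, 14.1 and 15.3 FPKM at 0 h, at 124, 131 and 119 FPKM at 2 h, and at 64.1, 53.5 and 46.4 FPKM at 8 h. In Micro-TOM-EX the libraries read 14.7, 10.3 and 10.03 FPKM at 0 h, 87.5, 80.9 and 72.8 FPKM at 2 h, and 37.6, 65.9 and 107 FPKM at 8 h. Every library of 2 h and 8 h lay above every library of 0 h in the same material. On the log2 scale it rose by 2.95 (SE 0.26, limma adjusted p = 4.4e-08) at 2 h and by 1.77 (adjusted p = 1.4e-05) at 8 h in Micro-TOM. In Micro-TOM-EX it rose by 2.70 (adjusted p = 1.1e-07) and 2.38 (adjusted p = 5.3e-07). From 2 h to 8 h it fell by 1.19 in Micro-TOM (adjusted p = 0.00067), and in Micro-TOM-EX, where the 8 h libraries spread widely, its change of -0.32 missed the threshold (adjusted p = 0.29; 0.021 after rescaling, at -0.71).

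The next gene on the same strand, LOC101253684, is also described as peroxidase 12 and moved less. In Micro-TOM it read 24.4, 19.1 and 34.2 FPKM at 0 h, 54.8, 49.8 and 45.6 FPKM at 2 h, and 59.8, 48.5 and 43.4 FPKM at 8 h, with no overlap between 0 h and the later hours. It rose by 0.96 at 2 h (limma adjusted p = 0.0025) and by 0.97 at 8 h (adjusted p = 0.0026). The Micro-TOM-EX libraries read 29.7, 26.8 and 35.7 FPKM, then 37.1, 44.9 and 39.4 FPKM, then 41.9, 80.1 and 95.4 FPKM. There the 2 h change of 0.39 missed the threshold (adjusted p = 0.17; 0.008 after rescaling, at 0.81), and the gene rose by 1.14 at 8 h (adjusted p = 0.00069). The pair spans 9.6 kb, and reads that fit both genes were not told apart.

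LOC101251503, described as peroxidase 21 (chromosome 9), went from near 0 to one of the leading peroxidases. It read 0.08, 0.11 and 0.08 FPKM at 0 h in Micro-TOM, 2.48, 2.42 and 4.21 FPKM at 2 h, and 33.9, 42.9 and 71.8 FPKM at 8 h. For Micro-TOM-EX the values were 0.04, 1.01 and 0.11 FPKM, then 1.42, 3.85 and 4.59 FPKM, then 52.8, 42.1 and 74.0 FPKM. The 3 hours did not overlap in either material. Its rises of 5.46 at 8 h in Micro-TOM (SE 0.34, limma adjusted p = 1.0e-09) and 5.40 in Micro-TOM-EX (adjusted p = 1.2e-09) were the largest of the family. At 2 h it had risen by 1.86 and 1.61 (adjusted p = 0.00013 and 0.00046). It reached 1 FPKM in 13 libraries, of which 1 was of 0 h. The gene was thus tested mostly through the hours where it is high.

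A second gene described as peroxidase 21, LOC101249874 on chromosome 10, came on later and lower. All 6 libraries of 0 h had it listed at 0, and it did not exceed 0.25 FPKM at 2 h. The 5 libraries in which it reached 1 FPKM were all of 8 h, 3 of Micro-TOM and 2 of Micro-TOM-EX, so it was tested through the hour where it is high. At 8 h it read 3.32, 2.06 and 4.63 FPKM in Micro-TOM, and 1.45, 0.20 and 1.55 FPKM in Micro-TOM-EX, and the materials did not overlap. It rose at 8 h in both (limma adjusted p = 1.3e-06 and 0.002), and was lower in Micro-TOM-EX at 8 h by -1.10 on the log2 scale (adjusted p = 0.026). That difference missed the threshold without Micro-TOM replicate 1 or 3 or Micro-TOM-EX replicate 2 of 8 h (adjusted p = 0.087, 0.091 and 0.071), and its q in the authors' deposited table was 0.22. No fold is given against its 0 h level.

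The suberization-associated anionic peroxidases are known in tomato and potato from wounds, where they help deposit the phenolic part of suberin, and the 3 genes of that description followed 3 courses. LOC101265511 (chromosome 3) climbed, from 0.41, 0.79 and 0.58 FPKM at 0 h in Micro-TOM to 6.07, 3.48 and 5.20 FPKM at 2 h and 13.3, 12.8 and 16.4 FPKM at 8 h. Micro-TOM-EX values were 1.11, 1.81 and 0.74 FPKM, then 2.82, 5.82 and 5.36 FPKM, then 10.1, 16.1 and 12.6 FPKM, again with no overlap between hours. It rose by 3.25 at 8 h in Micro-TOM (SE 0.24, limma adjusted p = 7.8e-09) and by 2.65 in Micro-TOM-EX (adjusted p = 8.1e-08). At 0 h it reached 1 FPKM in 2 libraries, both of Micro-TOM-EX, so it passed the filter mostly through the later hours.

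TAP2 (chromosome 2) was high at 2 h alone. In Micro-TOM it read 0.66, 3.34 and 1.54 FPKM at 0 h, 10.96, 12.7 and 6.82 FPKM at 2 h, and 2.45, 1.06 and 1.91 FPKM at 8 h. In Micro-TOM-EX it read 1.99, 3.25 and 1.51 FPKM, then 6.93, 27.2 and 16.3 FPKM, then 4.89, 6.25 and 2.71 FPKM. The 2 h libraries lay above all others of their material. It rose by 2.04 in Micro-TOM (SE 0.43, limma adjusted p = 0.00044) and by 2.31 in Micro-TOM-EX (adjusted p = 0.00014) at 2 h, then fell by 1.98 and 1.54 from 2 h to 8 h (adjusted p = 0.00066 and 0.0046).

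TMP1, the suberization-associated anionic peroxidase 1 gene, lies beside TAP2, both within 6.8 kb, and did not follow it. Its libraries read 12.8, 39.6 and 25.5 FPKM at 0 h in Micro-TOM, 22.8, 19.1 and 21.5 FPKM at 2 h, and 9.94, 7.71 and 8.49 FPKM at 8 h. Micro-TOM-EX had 27.2, 49.5 and 30.02 FPKM, then 25.9, 30.2 and 28.2 FPKM, then 9.92, 13.8 and 12.8 FPKM. The hours 0 and 2 overlapped and 8 h lay below both. TMP1 fell by 1.35 at 8 h in Micro-TOM (SE 0.29, limma adjusted p = 0.0006) and by 1.44 in Micro-TOM-EX (adjusted p = 0.00034), while its 2 h changes of -0.16 and -0.28 missed the threshold.

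LOC101268153 was the 1 cationic peroxidase that passed the filter. The other 3 (LOC101248494, LOC101263709 and LOC101267810) never exceeded 0.23 FPKM. It read 0, 0.05 and 0 FPKM at 0 h in Micro-TOM, 6.49, 2.29 and 3.63 FPKM at 2 h, and 0.98, 1.47 and 2.79 FPKM at 8 h. For Micro-TOM-EX the values were 0, 0.35 and 0 FPKM, then 5.01, 19.5 and 11.2 FPKM, then 3.93, 1.58 and 7.99 FPKM. All libraries of salt lay above those of 0 h, and it passed the filter through them alone. It rose in Micro-TOM (limma adjusted p = 0.00027 at 2 h and 0.012 at 8 h) and in Micro-TOM-EX (adjusted p = 4.5e-06 and 0.00049). The 8 h rise in Micro-TOM missed the threshold without replicate 3 of 8 h (adjusted p = 0.057). Its level at 2 h in Micro-TOM-EX was 1.24 above Micro-TOM on the log2 scale, which missed the threshold (adjusted p = 0.08).

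**Figure D3:**
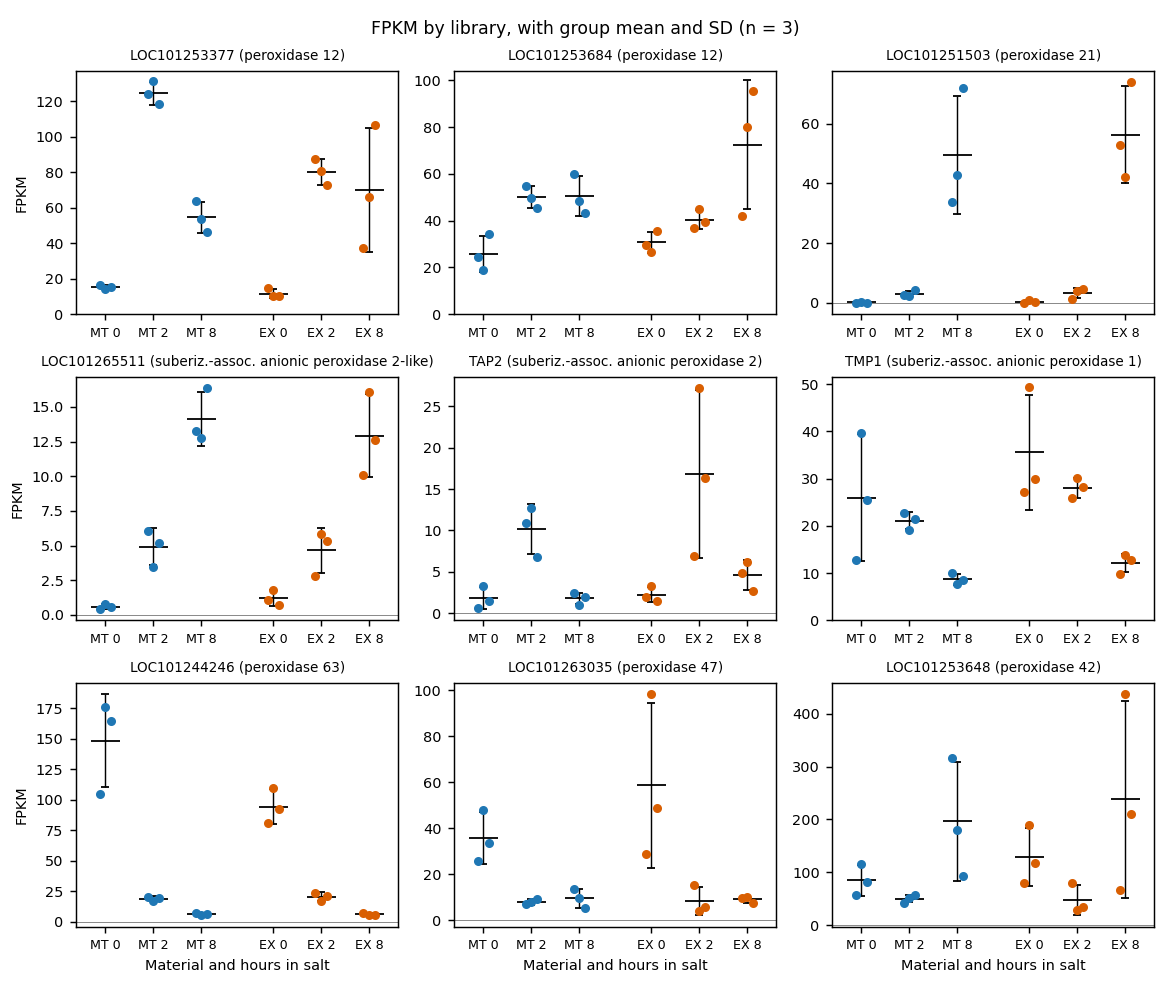
FPKM of 9 peroxidases by library (points) with group mean (line) and SD (bars, n = 3), by material and hours in salt; each panel has its own axis. TAP2 peaks at 2 h, LOC101265511 climbs to 12.8 to 16.4 FPKM at 8 h in Micro-TOM, and LOC101244246 drops from at least 80.9 FPKM at 0 h to at most 7.55 FPKM at 8 h.

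Other peroxidases were raised at 2 h. LOC101250523, described as peroxidase 3, whose Arabidopsis counterpart is known as a cold-induced gene, read 0.10, 0.58 and 0.15 FPKM at 0 h in Micro-TOM, 4.18, 1.15 and 2.5 FPKM at 2 h, and 0.05, 0.25 and 0 FPKM at 8 h. Micro-TOM-EX values were 0.15, 0.80 and 0.63 FPKM, then 4.94, 8.90 and 13.0 FPKM, then 0.24, 0.33 and 0.10 FPKM. The 2 h libraries stood apart from both other hours, and it passed the filter through these 6 alone. It rose by 1.43 (SE 0.31, limma adjusted p = 0.00061) and 2.64 (adjusted p = 1.2e-06) at 2 h. LOC101244162, 1 of 3 genes described as peroxidase 51, had group means of 1.94 ± 0.735 FPKM at 0 h, 5.16 ± 0.278 FPKM at 2 h and 1.03 ± 0.25 FPKM at 8 h in Micro-TOM (SD, n = 3) and rose by 1.09 at 2 h (adjusted p = 0.00036). In Micro-TOM-EX it rose by 0.95 (adjusted p = 0.0012).

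LOC101264739 (peroxidase 16) and LOC101267754 (peroxidase 51) were raised at low levels. The former passed the filter through libraries of 2 h and 8 h alone. LOC101264739 went from 0.233 ± 0.104 FPKM at 0 h to 4.63 ± 0.477 FPKM at 2 h and 3.18 ± 1.13 FPKM at 8 h in Micro-TOM (SD, n = 3), and from 0.287 ± 0.18 to 4.14 ± 1.39 and 2.91 ± 1.18 FPKM in Micro-TOM-EX. It rose in all 4 comparisons with 0 h (limma log2 changes of 1.57 to 2.19). LOC101267754 rose by 1.73 and 1.78 at 8 h in the materials (adjusted p = 0.00016 and 0.00012), to 4.48 ± 1.46 and 4.94 ± 2.26 FPKM. At 0 h it reached 1 FPKM in 1 library of each material, so it passed the filter mostly through the later hours. LOC101254073 (peroxidase 46) rose in Micro-TOM at 8 h alone, by 1.04 (adjusted p = 0.016). The rise missed the threshold without Micro-TOM replicate 1 of 0 h or replicate 1 or 2 of 8 h (adjusted p = 0.069, 0.069 and 0.05 when rounded), and the difference in response between the materials did not pass.

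Peroxidase 63 (LOC101244246, chromosome 2, 49665281 to 49666766, plus strand) had the largest fall of the 29 on the log2(FPKM + 1) scale at 8 h in both materials, and at 2 h in Micro-TOM. It read 105, 176 and 165 FPKM at 0 h in Micro-TOM, 20.6, 16.9 and 19.4 FPKM at 2 h, and 7.55, 5.40 and 6 FPKM at 8 h. The Micro-TOM-EX libraries read 80.9, 110 and 92.9 FPKM, then 23.6, 16.8 and 21.5 FPKM, then 6.94, 5.97 and 5.40 FPKM. No library of 1 hour overlapped another hour in either material. It fell by 2.87 at 2 h (SE 0.19, limma adjusted p = 1.9e-09) and by 4.33 at 8 h (adjusted p = 2.3e-11) in Micro-TOM, and by 2.14 and 3.74 in Micro-TOM-EX (adjusted p = 4.1e-08 and 1.1e-10).

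Peroxidase 47 (LOC101263035, chromosome 6), whose Arabidopsis counterpart is known from lignifying vessels, fell early and stayed low, and its log2 fall was the largest at 2 h in Micro-TOM-EX. It read 25.9, 48.0 and 33.6 FPKM at 0 h in Micro-TOM, 6.87, 7.71 and 9.21 FPKM at 2 h, and 13.4, 9.58 and 5.34 FPKM at 8 h. In Micro-TOM-EX it read 28.9, 98.5 and 48.9 FPKM, then 15.4, 3.78 and 5.65 FPKM, then 9.74, 9.97 and 7.41 FPKM. Every 0 h library lay above the later ones of its material. It fell by 2.01 and 1.85 in Micro-TOM (SE 0.44, limma adjusted p = 0.00069 and 0.0015) and by 2.72 and 2.41 in Micro-TOM-EX (adjusted p = 4.0e-05 and 0.00015).

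Peroxidase 17 and peroxidase 40 fell by less. In Arabidopsis, peroxidase 17 is known from lignified tissue, and peroxidase 40 cross-links extensin in the anther wall. LOC101260194 (peroxidase 17) went from 9.02 ± 1.6 to 4.11 ± 0.696 and 6.79 ± 1.16 FPKM at 0, 2 and 8 h in Micro-TOM, and from 11.4 ± 0.418 to 3.60 ± 1.15 and 6.13 ± 1.15 FPKM in Micro-TOM-EX (SD, n = 3). It fell at 2 h by 0.97 and 1.47 (limma adjusted p = 0.00018 and 2.4e-06), and at 8 h in Micro-TOM-EX by 0.81 (adjusted p = 0.0009). LOC101265956 (peroxidase 40) went from 5.24 ± 0.567 to 2.47 ± 0.0643 and 3.41 ± 0.591 FPKM in Micro-TOM. It fell at 2 h by 0.84 and 0.88 and at 8 h by 0.50 and 0.74 in Micro-TOM and Micro-TOM-EX (adjusted p = 0.00016 to 0.012), and the 8 h fall in Micro-TOM missed the threshold without replicate 1 of 0 h or replicate 3 of 8 h (0.052 and 0.061).

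Among the peroxidases of low level, LOC101245610 (peroxidase 19), LOC101254970 (putative peroxidase 48) and LOC101246070 (peroxidase 3-like) passed as lower at both hours in both materials. They reached 1 FPKM in 6, 6 and 4 libraries, all of 0 h, so they were tested through the hour where they are high and a fall was the outcome open to them. LOC101254970 read 1.97, 1.58 and 2.02 FPKM at 0 h in Micro-TOM and at most 0.67 FPKM in any library of 2 h or 8 h of either material. LOC101245610 read 1.24, 6.48 and 4.65 FPKM at 0 h in Micro-TOM and 1.70, 6.75 and 2.70 FPKM in Micro-TOM-EX, highest in the number 2 library of each, and at most 0.81 FPKM later. LOC101248236 (peroxidase 44-like) passed as lower in Micro-TOM-EX, by -1.37 at 2 h and -1.41 at 8 h (limma adjusted p = 0.0052 and 0.0046), with 1 of its 0 h libraries, number 2, at 5.94 FPKM and the others at 1.30 and 1.24 FPKM. It reached 1 FPKM in 6 libraries, of which 1 was of 2 h in Micro-TOM and the rest were of 0 h. This gene too was thus tested mostly through the hour where it is high. LOC101266098 (peroxidase 66), whose Arabidopsis counterpart is known from vessels, stayed between 0.35 and 1.53 FPKM and passed in none of the comparisons.

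Peroxidase 42 (LOC101253648, chromosome 2), the gene of highest mean level, varied widely between libraries. It read 56.8, 116 and 81.2 FPKM at 0 h in Micro-TOM, 42.5, 50.3 and 56.9 FPKM at 2 h, and 317, 180 and 93.6 FPKM at 8 h. Micro-TOM-EX values were 79.5, 189 and 117 FPKM, then 80.1, 27.5 and 33.2 FPKM, then 66.5, 438 and 210 FPKM. The hours overlapped in Micro-TOM-EX, whose 8 h libraries spanned 66.5 to 438 FPKM, and in Micro-TOM 2 h lay below 8 h. It rose from 2 h to 8 h, by 1.80 in Micro-TOM (SE 0.59, limma adjusted p = 0.012) and 2.10 in Micro-TOM-EX (adjusted p = 0.0047). The former missed the threshold without Micro-TOM replicate 1 of 8 h (adjusted p = 0.068). The fall by 1.51 at 2 h in Micro-TOM-EX (adjusted p = 0.029) was lost after rescaling (adjusted p = 0.089), and without replicate 2 or 3 of either hour (0.055 to 0.11).

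Peroxidase 51 (LOC101257228, chromosome 2) dipped at 2 h and overlapped its 0 h level at 8 h. It read 41.7, 50.8 and 62.1 FPKM at 0 h in Micro-TOM, 14.4, 11.6 and 14.7 FPKM at 2 h, and 60.1, 56.7 and 31.2 FPKM at 8 h. The Micro-TOM-EX libraries read 49.3, 45.0 and 49.8 FPKM, then 42.3, 18.5 and 26.6 FPKM, then 38.7, 39.7 and 62.3 FPKM. The dip at 2 h lay below 0 h with no overlap in both materials. In Micro-TOM it fell by 1.84 (SE 0.28, limma adjusted p = 1.9e-05). In Micro-TOM-EX it fell by 0.78 (adjusted p = 0.019), which was lost after rescaling (adjusted p = 0.24) and without replicate 2 of 2 h (adjusted p = 0.12). The difference in response between the materials did not pass.

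Between 2 h and 8 h, 8 peroxidases were higher at 8 h and 9 lower in Micro-TOM, beside 46% and 23.7% of all genes, and 10 were higher and 8 lower in Micro-TOM-EX, beside 45.3% and 23.7%. Rescaled, the counts were 6 and 11 in Micro-TOM, beside 31.9% and 34.9% of all genes, and 7 and 10 in Micro-TOM-EX, beside 31.8% and 34.6%. Among the 20 beside the 9 set apart above, 7 were higher and 7 lower in Micro-TOM, and 9 and 5 in Micro-TOM-EX. Peroxidase 21 (LOC101251503) rose furthest, by 3.60 and 3.79 (limma adjusted p = 1.6e-07 and 8.9e-08). LOC101250523 (peroxidase 3) fell by 2.94 in Micro-TOM-EX, the deepest fall of the family there (adjusted p = 5.3e-07).

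The materials were then compared at the same hour, to see where the peroxidases of Micro-TOM-EX departed from those of Micro-TOM. At 0 h, 0 of the 29 were higher in Micro-TOM-EX and 1 was lower, beside 1.95% and 2.06% of all genes. At 2 h, 2 were higher and 3 lower, beside 6.22% and 7.48%, and at 8 h 0 were higher and 2 lower, beside 0.989% and 0.679%. Rescaled, the counts were 0 and 2 at 0 h (1.63% and 2.32% of all genes), 2 and 3 at 2 h (8.19% and 7.33%) and 0 and 2 at 8 h (1.06% and 0.621%). By the q-values of the authors' deposited table, which also cover genes below the filter, they were 1 and 2 at 0 h (1.41% and 2.45%), 4 and 4 at 2 h (6.13% and 6.99%) and 1 and 1 at 8 h (1.61% and 1.1%). Of the 4 lower at 2 h by the authors' deposited table, 2 (LOC101260035 and LOC101268099) are not among the 29. The 1 higher at 8 h there was TAP2 (log2 of 1.18, q = 0.042), which missed the threshold by limma (0.98, adjusted p = 0.35). Among the 20 beside the 9 set apart above, the main counts were 0 higher and 1 lower at 0 h, 1 and 2 at 2 h, and 0 and 1 at 8 h. Without adjustment, 3, 9 and 6 peroxidases had a limma p under 0.05 at 0, 2 and 8 h. The share of all genes at that threshold was not computed, so these counts are not read as differences. The difference between the materials in the response itself passed for 2 genes at 2 h (1 higher and 1 lower in Micro-TOM-EX, beside 2.74% and 3.74% of all genes) and for 1 at 8 h (higher, beside 0.815% higher and 0.538% lower). Rescaled, it passed for 2 higher and 2 lower at 2 h (3.71% and 3.38% of all genes) and for the 1 higher at 8 h (1.08% higher and 0.414% lower). Among the 20, the difference in response passed for 1 at each hour, LOC101246783.

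The gene that differed most was LOC101246783, a lignin-forming anionic peroxidase on chromosome 11 (9597040 to 9598493, minus strand), a name taken from a tobacco enzyme that polymerises lignin monomers. In Micro-TOM it read 50.7, 61.8 and 40.9 FPKM at 0 h, 34.5, 32.6 and 44.1 FPKM at 2 h, and 4.62, 4.19 and 8.58 FPKM at 8 h. For Micro-TOM-EX the values were 17.4, 9.24 and 11.8 FPKM at 0 h, 95.7, 41.4 and 81.02 FPKM at 2 h, and 20.7, 7.06 and 15.2 FPKM at 8 h. At 0 h the materials did not overlap, with Micro-TOM-EX lower. At 2 h and at 8 h 1 library of Micro-TOM-EX lay within the range of Micro-TOM and the other 2 lay above it.

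In Micro-TOM the 2 h change of LOC101246783 was -0.45 and missed the threshold, and by 8 h it had fallen by 2.98 (SE 0.36, limma adjusted p = 2.2e-06). In Micro-TOM-EX it rose by 2.37 at 2 h (adjusted p = 2.0e-05) and at 8 h stood 0.08 from its 0 h level, which did not pass. The response thus differed between the materials by 2.82 at 2 h (SE 0.51, adjusted p = 0.0037) and by 3.05 at 8 h (adjusted p = 0.0083), and both differences contain the level at 0 h. At 0 h Micro-TOM-EX was lower by -1.94 (adjusted p = 0.0054), which did not pass without the number 2 libraries of 0 h (adjusted p = 0.078). The differences in response passed without them, at 2.48 (adjusted p = 0.024) and 2.71 (adjusted p = 0.036). In the authors' deposited table the difference between the materials at 0 h was -1.91, with a q of 5.3e-09. At 2 h it was 0.948 (q = 0.0039) and at 8 h 1.135 (q = 0.061) there, with Micro-TOM-EX higher. By limma the materials did not pass as different at 2 h or at 8 h for this gene.

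**Figure D4:**
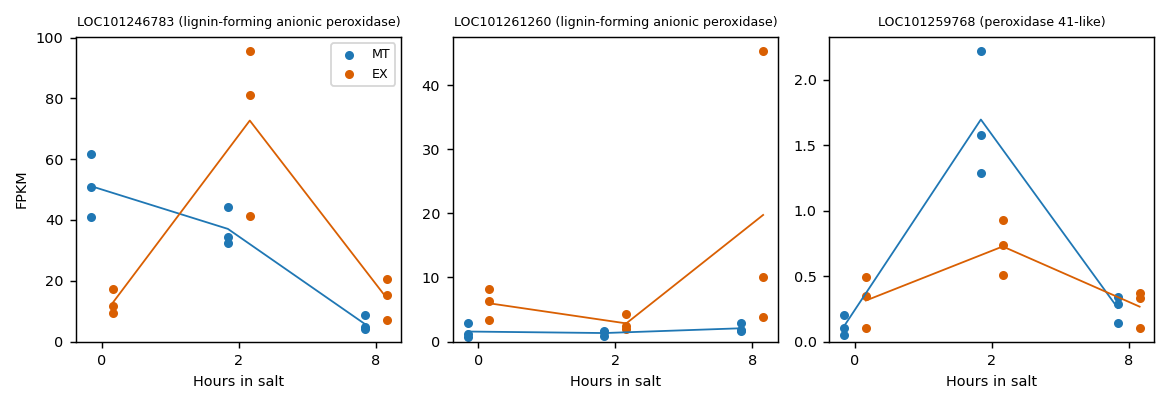
FPKM by library (points) and group mean (lines) of LOC101246783, LOC101261260 and LOC101259768 at 0, 2 and 8 h in Micro-TOM (MT, blue) and Micro-TOM-EX (EX, orange), with hours at even steps and an axis for each panel. LOC101246783 starts lower in Micro-TOM-EX, rises above Micro-TOM at 2 h in 2 of 3 libraries, and LOC101259768 peaks higher in Micro-TOM.

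The other lignin-forming anionic peroxidase, LOC101261260 on chromosome 1, stayed low in Micro-TOM, at 0.74 to 2.87 FPKM over all 9 libraries. In Micro-TOM-EX it read 3.35, 6.33 and 8.22 FPKM at 0 h, 4.26, 1.88 and 2.36 FPKM at 2 h, and 3.89, 10.1 and 45.4 FPKM at 8 h. Each Micro-TOM-EX library lay above the Micro-TOM libraries of the same hour. The differences of 1.46 at 0 h and 2.17 at 8 h did not pass (limma adjusted p = 0.23 and 0.08). In the authors' deposited table the difference at 0 h was 1.49 with a q of 0.023. Its rise of 1.87 from 2 h to 8 h in Micro-TOM-EX passed (adjusted p = 0.0086), with 1 library at 45.4 FPKM.

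At 2 h the peroxidases higher in Micro-TOM-EX were peroxidase 3 (LOC101250523), by 1.47 (SE 0.31, limma adjusted p = 0.0053), and peroxidase 51 (LOC101257228), by 0.98 (adjusted p = 0.029). The latter missed the threshold without any one of the 2 h libraries except Micro-TOM-EX replicate 2 (adjusted p = 0.055 to 0.1). Those lower in Micro-TOM-EX were LOC101247048 (peroxidase 45-like), LOC101259768 (peroxidase 41-like) and LOC101253636 (peroxidase 43-like). LOC101247048 read 2.06, 1.68 and 1.38 FPKM in Micro-TOM and 0.32, 0.37 and 0.16 FPKM in Micro-TOM-EX at 2 h, a difference of -1.07 (adjusted p = 0.025) that missed it without Micro-TOM replicate 1 or 2 or Micro-TOM-EX replicate 2 or 3 (0.05, when rounded, to 0.11). LOC101259768 reached 1 FPKM in 3 libraries, those of Micro-TOM at 2 h, so it was tested only through the group where it is high, and its tests are no support for a difference. It went from at most 0.20 FPKM at 0 h to 2.22, 1.58 and 1.29 FPKM at 2 h in Micro-TOM. The Micro-TOM-EX libraries read 0.49, 0.35 and 0.10 FPKM at 0 h and 0.51, 0.93 and 0.74 FPKM at 2 h, and the fitted difference in response was -0.86 (adjusted p = 0.029). That difference in response missed the threshold without any one of 7 of the 12 libraries of 0 h and 2 h (adjusted p = 0.051 to 0.082, the last without Micro-TOM replicate 1 of 2 h), and the difference at 2 h itself missed it without that same library (adjusted p = 0.084). Its q for the difference at 2 h in the authors' deposited table was 0.092. These levels amount to few fragments, which limits how firmly the differences can be read.

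LOC101253636 (peroxidase 43-like, chromosome 10) was lower in Micro-TOM-EX at both later hours. At 2 h it read 0.72, 0.63 and 0.36 FPKM in Micro-TOM and 0.29, 0 and 0.08 FPKM in Micro-TOM-EX, and at 8 h 2.52, 1.99 and 2.00 FPKM against 0.43, 1.01 and 0.78 FPKM. The materials did not overlap at either hour. The log2 differences were -0.48 (SE 0.15, limma adjusted p = 0.044) and -0.88 (adjusted p = 0.0041). The 2 h difference missed the threshold without Micro-TOM replicate 1 or 2 or Micro-TOM-EX replicate 2 or 3 (adjusted p = 0.11 to 0.18). The difference in response between the materials did not pass for this gene.

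**Figure D5:**
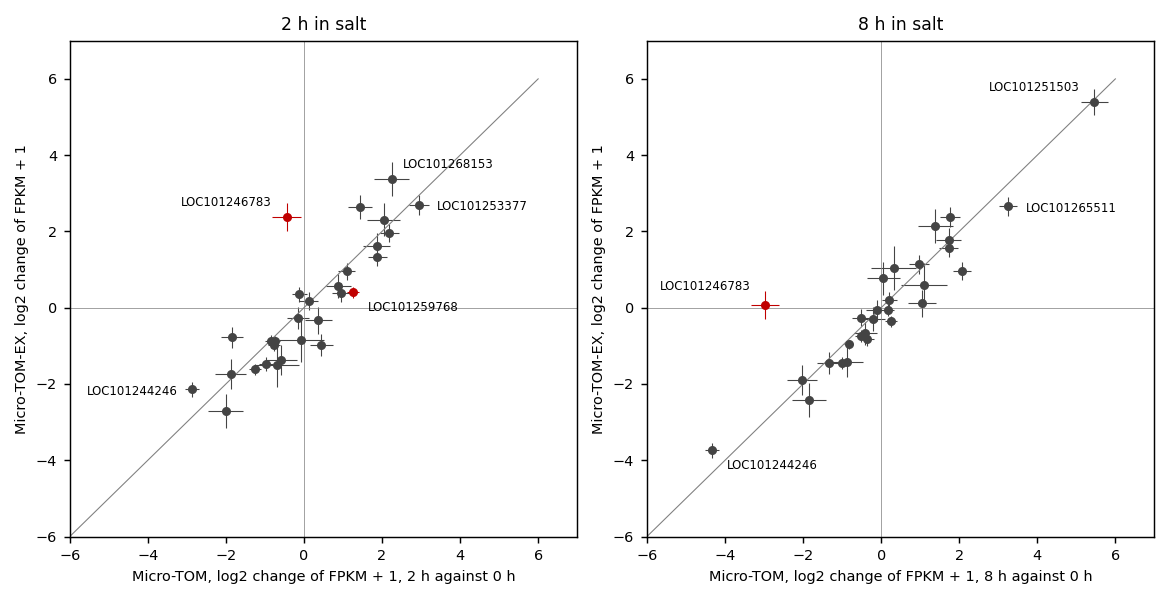
Log2 change of FPKM + 1 against 0 h of each of the 29 tested peroxidases in Micro-TOM (horizontal) and Micro-TOM-EX (vertical) at 2 h and 8 h, with standard errors as bars and a grey line of equal change. Genes in red passed the test of a difference in response: LOC101246783 at both hours, above the line, and LOC101259768 at 2 h, below it, which entered the test only through its Micro-TOM libraries of 2 h.

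At 0 h, libraries of the same replicate number correlated between the materials in their deviations from the group means (0.48, 0.44 and 0.13). No label pairs them, and whether they are paired is not known. A block for the numbers within each hour gave 2 peroxidases lower in Micro-TOM-EX at 0 h in place of 1. The gene added was peroxidase 63 (LOC101244246), which read 105, 176 and 165 FPKM in Micro-TOM and 80.9, 110 and 92.9 FPKM in Micro-TOM-EX, with 1 library of each inside the range of the other. Its difference of -0.62 had an adjusted p of 0.082 without the block and 0.012 with it, both by limma.

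The genes that make or share the substrates of peroxidases were looked at as lists by description. Of the genes for lignin monomer synthesis, 55 of 68 were tested. At 2 h 28 of them rose and 12 fell in Micro-TOM, and 35 rose and 10 fell in Micro-TOM-EX, with median log2 changes of 0.52 and 1.0 beside -0.31 and -0.37 over all genes. Of all tested genes, 27.5% were higher and 47.5% lower at 2 h in Micro-TOM, and 26.7% and 49.2% in Micro-TOM-EX. At 8 h 26 rose and 15 fell in Micro-TOM, and 25 rose and 18 fell in Micro-TOM-EX, beside 37% higher and 33.6% lower, and 35.5% and 35.8%, of all genes. The cinnamoyl-CoA reductase-like gene LOC101265652, of the family that makes lignin aldehydes, rose from 7.94 ± 2.71 to 250 ± 35.7 FPKM at 2 h in Micro-TOM (SD, n = 3; limma adjusted p = 1.8e-10). The caffeoylshikimate esterase gene LOC101246087 rose from 7.38 ± 1.31 to 240 ± 32.3 FPKM at 8 h in Micro-TOM (adjusted p = 8.3e-10). Another cinnamoyl-CoA reductase gene, LOC101268681, fell from 83.2 ± 0.962 to 25.8 ± 3.53 FPKM at 8 h (adjusted p = 1.2e-09).

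Laccases, which couple lignin monomers with oxygen in place of hydrogen peroxide, were mostly below the filter, with 5 of 25 tested. At 8 h in Micro-TOM 1 of the 5 rose and 1 fell, beside 37% and 33.6% of all genes. The one that rose, the laccase-14-like gene LOC101261512, went from 0.407 ± 0.254 to 22.7 ± 9.1 FPKM (limma adjusted p = 2.3e-05). Of 19 dirigent proteins, which steer the coupling of phenolic radicals, 9 were tested, and 1 rose and 3 fell at 8 h in Micro-TOM (beside 37% and 33.6% of all genes), among them LOC101245673 from 44.5 ± 10.5 to 10.1 ± 1.71 FPKM. Of 21 genes matched for suberin synthesis, 9 were tested, and 3 rose and 4 fell at 8 h in Micro-TOM, beside the same shares. The fatty acyl-CoA reductase gene LOC101255461, of the family that makes the fatty alcohols of suberin and wax, rose from 0.83 ± 0.201 to 85.99 ± 21.04 FPKM there (adjusted p = 3.0e-10). One of the fallers, LOC101261466, is a 1-acyl-sn-glycerol-3-phosphate acyltransferase, matched by its description and not a suberin gene by name.

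The genes that make or remove hydrogen peroxide were counted in the same way. Of 6 NADPH oxidases, which make superoxide at the cell surface, 2 were tested. At 2 h in Micro-TOM 1 rose and 1 fell, beside 27.5% and 47.5% of all genes. The one that fell, LOC101246440, went from 13.3 ± 1.86 to 2.00 ± 0.386 FPKM (limma adjusted p = 5.0e-08). All 8 superoxide dismutases, which turn superoxide into hydrogen peroxide, were tested, and 3 rose and 3 fell at 8 h in Micro-TOM, near the shares of all genes (37% higher and 33.6% lower). Of 19 genes for hydrogen peroxide removal (catalase, ascorbate and glutathione peroxidases), 6 rose and 6 fell at 2 h in Micro-TOM, and 4 rose and 9 fell in Micro-TOM-EX, beside 27.5% and 47.5%, and 26.7% and 49.2%, of all genes. Rescaled, the latter became 7 and 5 of 18 tested, beside 36.6% and 37.1%. At 8 h 10 rose and 4 fell in Micro-TOM, and 10 rose and 5 fell in Micro-TOM-EX, beside 35.5% and 35.8% of all genes there. Catalase isozyme 3 (LOC101259333) rose from 1.30 ± 0.0709 to 70.9 ± 23.7 FPKM at 8 h in Micro-TOM (adjusted p = 3.9e-11).

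Markers of leaf cell types moved with the hours as well. The 29 markers of mesophyll (Rubisco small chains and chlorophyll-binding proteins) summed to 30130 to 44170 FPKM at 0 h in Micro-TOM, 10780 to 17630 FPKM at 2 h and 6793 to 18680 FPKM at 8 h, and 17 of the 28 tested fell at 2 h in each material, beside 47.5% and 49.2% of all genes. Rescaled, 16 and 15 fell, beside 37% and 37.1%. Their sum in Micro-TOM-EX was 43770 to 46440 FPKM at 0 h, 12050 to 32170 FPKM at 2 h and 6994 to 16940 FPKM at 8 h. The 7 xylem markers summed to 2.01 to 10.89 FPKM in every library, the 16 phloem markers to 110.7 to 283.7 FPKM, and the 7 root endodermis markers to 0.43 to 3.59 FPKM. The 13 markers of guard cells and stomata summed to 46.78 to 68.22 FPKM at 0 h, 15.45 to 20.09 FPKM at 2 h and 31.86 to 42.95 FPKM at 8 h over both materials. Of the markers, at most 1 of mesophyll, 1 of xylem, 2 of phloem, 2 of guard cells and 2 of root endodermis were at 0 in every library of a group. The phloem sum was 190.5 to 283.7 FPKM over the 6 libraries of 0 h and at most 168.1 FPKM at the later hours. In whole leaves, fewer cells of a type and less RNA per cell cannot be told apart, and the part of these markers in the peroxidase changes was not tested.

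LOC101262135, the homeodomain gene that the name search also caught, dipped at 2 h. It read 26.5, 20.3 and 25.3 FPKM at 0 h in Micro-TOM, 7.70, 6.84 and 9.15 FPKM at 2 h, and 26.2, 26.4 and 30.4 FPKM at 8 h. It fell by 1.49 at 2 h in Micro-TOM (SE 0.13, limma adjusted p = 6.0e-08) and by 1.79 in Micro-TOM-EX (adjusted p = 7.6e-09), and at 8 h it did not pass in either.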

How the data were processed

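Leaf RNA of 18 libraries was sequenced on a BGI500 instrument, per the labels' protocols. The submitters' processing notes name, without roles, RSEM 1.2.12, HISAT2 2.0.4, DESeq2 1.4.5 and Bowtie2 2.2.5. The authors deposited 1 table of FPKM values rounded to 2 decimals, without counts, with 761 new gene models among its 23808 genes. The deposited table also held the authors' log2 fold changes and q-values for 9 pairs of groups, used as an alternative. All 18 FPKM columns were identical to their second copy. Depth was estimated from the step between low FPKM values, trying depths of 12 to 30 M fragments, with a fit of 0.875 to 0.909 (1 is perfect).

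Members were matched on the deposited descriptions, and 21978 gene IDs matched a reference table from which chromosome numbers were taken. limma 3.58.1 in R 4.3.3 was run on log2(FPKM + 1) with 1 model over the 6 groups, moderated by empirical Bayes along the mean, and Benjamini-Hochberg adjustment in each of 11 comparisons; it was tested on simulated data. The median SE of a log2 change was 0.169. Libraries of the same replicate number were compared by their deviations from the group means. At 0 h the materials correlated at 0.48, 0.44 and 0.13 for numbers 1, 2 and 3, all over 0.1, and no other pair of groups did so for all 3. A pairing at 0 h would rest on these correlations and on no label. The fit is unpaired, with the block as an alternative.

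The members and gene lists were chosen with earlier results of these data known. Genes were named by a rule: up to 5 largest rises and falls in each comparison with 0 h, up to 3 from 2 h to 8 h and up to 4 between the materials, among those that passed and whose higher group averaged 5 FPKM. It also takes up to 4 of smallest p for differences in response, the 8 of highest mean and all lignin-forming, suberization-associated and cationic ones. Up to 3 genes come from each list, by adjusted p at 8 h in Micro-TOM. Peroxidases named beyond it, mostly of low level, were chosen after their values were seen. Alternatives were median-ratio scaling, no filter, a filter of 5 FPKM, a pseudocount of 0.1, a fit limited to the compared groups, a minimum of 2-fold, replicate blocks, each library left out, the authors' q-values and, chosen after seeing the data, the number 2 libraries of 0 h left out. No sequence is shown.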

Additional observations from a re-analysis of the deposited data

Results flagged for a closer look

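The 3 results that follow stood out because the change from 0 h differed between the materials by a test of that difference. The lignin-forming anionic peroxidase LOC101246783 responded 2.82 higher on the log2 scale in Micro-TOM-EX at 2 h and 3.05 higher at 8 h, the latter from a fall in Micro-TOM beside a level near that of 0 h in Micro-TOM-EX. For LOC101259768 (peroxidase 41-like) the fitted difference in response at 2 h was -0.86, but it reached 1 FPKM only in the 3 Micro-TOM libraries of 2 h, so it was tested through the group where it is high and the test is no support for the difference.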

How the results depend on the processing

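Of 85 passing changes of 21 named peroxidases, 58 passed under every alternative that tested them, 27 missed the threshold under at least 1, and 0 reversed. Not every alternative tested every change. The filter of 5 FPKM kept 69 of the 85. The authors' q-values do not cover the differences in response, and the block within each hour covers only comparisons of the materials. Without the number 2 libraries of 0 h, 4 of the 85 missed the threshold. A filter of 5 FPKM, which left fewer peroxidases to test, gave 12 passing at 2 h and 11 at 8 h against 0 h and 11 from 2 h to 8 h in Micro-TOM, 12 and 11 at 2 h and 8 h in Micro-TOM-EX, 1 and 0 between the materials at 2 h and 8 h, and 1 for the difference in response at 2 h. Of all genes, 29.1% were then higher and 49.9% lower at 2 h in Micro-TOM, and 39.3% and 35.2% at 8 h. From 2 h to 8 h there they were 49% and 25.1%. In Micro-TOM-EX the shares were 29.5% and 50.3% at 2 h, and 38.4% and 36.4% at 8 h. Between the materials they were 6.64% and 6.88% at 2 h, and 0.85% and 0.551% at 8 h. For the difference in response at 2 h they were 2.94% and 2.97%. Between the materials at 0 h, 1 passed, against 2 rescaled, 2 with a replicate block within each hour, 3 by the authors' q and 0 without the number 2 libraries of 0 h. Of all genes, 2.11% were higher and 2.28% lower with that block, and 1.48% and 1.62% without those libraries. Between the materials at 2 h, 5 passed, against 11 with no filter, 2 with a 2-fold minimum, 2 in a fit of these groups alone, 3 with the block within each hour and 8 by the authors' q, of which 2 are below the filter and not among the 29 tested. No filter left all 69 peroxidases to test, beside the 29 of the main fit. Of all genes, 4.86% were then higher and 7.3% lower. The shares were 1.27% and 2.1% with that minimum, 4.47% and 5.68% in that fit, and 6.45% and 7.77% with that block. At 8 h, 2 passed, against 1 with a pseudocount of 0.1, 1 with a 2-fold minimum and 0 in a fit of these groups alone. Of all genes, 0.984% were higher and 0.565% lower with that pseudocount. They were 0.538% and 0.31% with that minimum, and 0.554% and 0.331% in that fit. The difference in response at 2 h passed for 2, against 4 rescaled, 4 with no filter and 4 with the block within each hour. It passed for 1 each with the lower pseudocount, the 2-fold minimum, the groups alone and without the number 2 libraries. Of all genes, 2.08% were higher and 3.57% lower with no filter, and 2.83% and 3.6% with that block. The difference in response at 8 h passed for 1, against 2 with that block, beside 0.761% and 0.391% of all genes. The cause of these moves was not tested where no filter or smaller fit shows it.

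With 1 library left out, 19 to 20 passed at 2 h and 16 to 18 at 8 h in Micro-TOM, 19 to 22 and 17 to 19 in Micro-TOM-EX, 1 to 2, 1 to 5 and 1 to 3 between the materials at 0, 2 and 8 h, and 1 to 3 for the difference in response at 2 h. The counts of 2 at 0 h came without Micro-TOM replicate 1, those of 1 or 2 at 2 h without Micro-TOM replicate 1 or 2 or Micro-TOM-EX replicate 3, and that of 1 at 8 h without Micro-TOM replicate 1 or 3. The difference in response at 2 h passed for 1 gene, LOC101246783, without Micro-TOM replicate 2 or 3 of 0 h, replicate 1 of 2 h, or Micro-TOM-EX replicate 2 of 0 h or 3 of 2 h. With a replicate block over all groups, 20, 18 and 18 passed between hours in Micro-TOM and 22, 18 and 18 in Micro-TOM-EX, and all 85 named changes passed. Of all genes, 27.6% were then higher and 47.3% lower at 2 h in Micro-TOM, and 26.9% and 49.2% in Micro-TOM-EX. At 8 h against 0 h they were 37.2% and 33.9%, and 35.6% and 36.2%. From 2 h to 8 h they were 46.1% and 24%, and 45.4% and 23.8%. Beyond 0 h the numbers do not pair the samples. Levels under 1 FPKM rest on few fragments.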

Other observations

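Another 8 genes are described as peroxidases without a number, and 6 of them were tested. LOC101258529, a peroxidase P7-like gene on chromosome 3, reached higher levels than any of the 69 numbered or named peroxidases. It read 5.89, 5.07 and 2.99 FPKM at 0 h in Micro-TOM, 53.8, 101 and 72.0 FPKM at 2 h, and 419, 436 and 699 FPKM at 8 h. The Micro-TOM-EX values were 2.92, 5.89 and 2.58 FPKM, then 40.4, 40.2 and 25.0 FPKM, then 244, 115 and 318 FPKM. The hours did not overlap in either material. It rose by 6.52 at 8 h in Micro-TOM (SE 0.37, limma adjusted p = 3.4e-10) and by 5.51 in Micro-TOM-EX (adjusted p = 2.3e-09).

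CEVI-1, a tomato peroxidase gene known for its induction by viroid infection, read 15.4, 19.7 and 23.8 FPKM at 0 h in Micro-TOM and 1.97, 0.53 and 1.19 FPKM at 8 h. In Micro-TOM-EX it read 31.3, 45.5 and 49.2 FPKM at 0 h and 4.2, 6.57 and 46.6 FPKM at 8 h, with 1 library far above the others. It fell by 3.24 at 8 h in Micro-TOM (limma adjusted p = 7.1e-05). In Micro-TOM-EX, where 0 h and 8 h overlapped, it fell by 1.78 (adjusted p = 0.009, up to 0.062 with 1 library left out). At 8 h it was 2.52 higher in Micro-TOM-EX (adjusted p = 0.026, up to 0.15 with 1 library left out). The difference in response at 8 h did not pass (1.46, adjusted p = 0.5). The gene cevi16 was high at 2 h alone, at 24.2, 27.6 and 28.5 FPKM in Micro-TOM and 28.8, 39.9 and 45.6 FPKM in Micro-TOM-EX, and rose there by 1.18 and 2.12 (adjusted p = 0.0011 and 3.5e-06). These genes were chosen for the text after their values were seen, except LOC101258529.

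Of the 29 tested peroxidases, 16 were highest in the number 2 library among the 3 of 0 h in Micro-TOM and 19 in Micro-TOM-EX. Over all tested genes the shares were 40.7% and 58.7%.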
